A study of Mus musculus with 8 samples.

Results

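The DNA replication and mitosis genes described here are 49 genes chosen by symbol, of the 18193 mouse genes that the array measures with a probe-set of a single symbol. They were split by their known roles into 16 S phase genes, 32 mitotic genes and E2f5, which belongs to neither class. For each gene the probe-set with the highest mean log2 signal over the 8 arrays was read. A probe-set with that single symbol was found for 48 of the 49, with Ccnb1 as the exception, and 47 were bright enough to be tested (15 S phase, 31 mitotic and E2f5). Tyms was left out because its brightest probe-set had signals between 1.4 and 14.1, under the filter of 31.

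Wild-type mouse pups were used to prepare primary cultures of cerebellar cells, from animals of P4 to P7 as the labels state. The cells were plated in serum-free medium for 48 h and then either received thyroid hormone (T3, triiodothyronine) at 0.1 µM or were left untreated for 6, 16, 24 or 48 h. Each of the 8 conditions was measured on 1 Affymetrix Mouse 430 2.0 array, and the T3 and untreated cultures of a time point came from the same batch of cells pooled from several cerebella. Time point and cell batch therefore cannot be told apart, and a comparison of single arrays has no replicate check. Values are MAS 5.0 signals, scaled by the authors to the same trimmed mean on each array.

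A dividing cell passes through G1, copies its DNA in S phase, and separates the copies in mitosis. Cyclin E and E2F1 drive entry into S phase, CDC6 and the MCM2 to MCM7 helicase license and open the origins, and PCNA and ribonucleotide reductase serve the replication fork. In mitosis, cyclin A and B with CDK1 start the division, Aurora and Polo-like kinases build the spindle, checkpoint proteins at the kinetochore hold anaphase, and the anaphase-promoting complex releases it. In the newborn cerebellum, the dividing cells are above all the granule cell precursors of the external layer, which stop dividing before they migrate inward. E2F sites are known in promoters of S phase genes, and a CCAAT box together with a cell-cycle homology region (CHR) in promoters of mitotic genes.

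The promoter letters of the members were read from the RefSeq windows of GRCm38.p6, which run from 250 bases before to 50 bases after a transcription start. A window was found for 41 of the 49 members, and Mcm7 and Prc1 had 2 each. No window was matched for Ccne2, Gmnn, Mcm4, Ccna2, Aurkb, Tpx2, Kif20a and E2f5. The letters searched on both strands were TTTGAA for the CHR, TTTAAA for its variant and CCAAT for the CCAAT box. An E2F site was counted where the letters were TTCCCGC, or else TTGGCGC, or the form TTCGCGC, or the form TTGCCGC. Matches can overlap each other.

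The upstream stretches of 5 members are printed to show these letters, 5′ to 3′ on the strand of the gene, with the matches in capitals. Kif11 and Ube2c are the mitotic genes with the steepest slopes over the hours among those with both a CHR and a CCAAT box in the 250 bases before the start. Mki67 is shown as the most used marker of dividing cells and was added after its values were seen. Mcm5 and Mcm7 are the S phase genes with the steepest slopes among those with an E2F site there. The stretches are at chr19:37376132-37376381 on the plus strand for Kif11, at chr2:164769679-164769928 on the plus strand for Ube2c, at chr7:135716380-135716629 on the minus strand for Mki67, at chr8:75109259-75109508 on the plus strand for Mcm5 and at chr5:138171884-138172133 on the minus strand for Mcm7.
Kif11: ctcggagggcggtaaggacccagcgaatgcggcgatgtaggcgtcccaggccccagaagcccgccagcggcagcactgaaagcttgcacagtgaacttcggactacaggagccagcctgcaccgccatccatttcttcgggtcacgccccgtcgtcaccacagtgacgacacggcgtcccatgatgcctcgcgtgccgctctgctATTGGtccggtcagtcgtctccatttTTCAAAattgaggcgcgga
Ube2c: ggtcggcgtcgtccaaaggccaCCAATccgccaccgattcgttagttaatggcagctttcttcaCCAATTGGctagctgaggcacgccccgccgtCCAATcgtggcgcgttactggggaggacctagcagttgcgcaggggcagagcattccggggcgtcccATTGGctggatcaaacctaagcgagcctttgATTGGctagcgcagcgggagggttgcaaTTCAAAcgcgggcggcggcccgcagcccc
Mki67: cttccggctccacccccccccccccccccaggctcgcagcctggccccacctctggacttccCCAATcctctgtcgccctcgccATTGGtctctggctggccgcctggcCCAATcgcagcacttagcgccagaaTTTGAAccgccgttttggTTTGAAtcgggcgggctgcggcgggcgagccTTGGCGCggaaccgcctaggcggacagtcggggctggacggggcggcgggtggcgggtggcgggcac
Mcm5: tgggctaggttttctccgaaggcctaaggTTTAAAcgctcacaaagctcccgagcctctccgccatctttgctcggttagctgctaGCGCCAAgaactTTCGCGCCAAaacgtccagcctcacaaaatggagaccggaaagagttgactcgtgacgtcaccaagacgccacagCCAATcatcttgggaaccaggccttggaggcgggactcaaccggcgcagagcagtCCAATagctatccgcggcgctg
Mcm7: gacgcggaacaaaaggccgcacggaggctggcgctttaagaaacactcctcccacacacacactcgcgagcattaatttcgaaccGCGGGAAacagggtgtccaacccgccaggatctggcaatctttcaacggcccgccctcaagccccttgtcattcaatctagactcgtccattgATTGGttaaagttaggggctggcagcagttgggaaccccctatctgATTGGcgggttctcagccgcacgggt

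Positions are counted back from the start, with -1 as the base before it. In the Kif11 promoter, the capitals mark a CCAAT box on the opposite strand at -45 and a CHR at -19. In the Ube2c promoter they mark 6 CCAAT boxes, of which those at -186 and -183 overlap, and a CHR at -29. The Mki67 promoter holds 3 CCAAT boxes, CHR letters at -116 and -98, and an E2F site at -67. In the Mcm5 promoter they mark the TTTAAA variant at -221, E2F letters at -164, -152 and -149, of which the last pair overlap, and CCAAT boxes at -77 and -22. The Mcm7 promoter holds an E2F site at -165 and CCAAT boxes at -72 and -26.

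The classes differed in the letters their windows hold. TTTGAA was found in 20 of the 29 mitotic windows (68.97%, exact 95% interval 49.17 to 84.72) and in 1 of the 14 S phase windows, that of Mcm2 (7.143%, interval 0.1807 to 33.87). It was found in 17.89% of all 32851 promoter windows of the table and in 11.62% of those of the genes bright enough to be tested. A CCAAT box was present in 82.76% of the mitotic and 64.29% of the S phase windows, against 37.41% of all windows and 37.29% of those of the tested genes. Both together were present in 19 of 29 mitotic windows (65.52%), in 7.143% of the S phase windows, in 6.953% of all windows and in 4.539% of those of the tested genes.

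E2F letters showed the opposite order. They were found in 9 of 14 S phase windows (64.29%, interval 35.14 to 87.24), those of Cdc6, Chek1, Mcm3, Mcm5, Mcm6, Mcm7, Rrm1 and Rrm2. They were found in 5 of 29 mitotic windows (17.24%, interval 5.846 to 35.77), those of Ccnb1, Cdk1, Hmmr, Mki67 and Ska2. They were found in 9.574% of all windows and in 16.89% of those of the genes bright enough to be tested, which is close to the mitotic share. The TTTAAA variant was found in 21.43% of the S phase windows, 24.14% of the mitotic ones, 13.16% of all windows and 9.209% of those of the tested genes. With only the 250 bases before the start, the CHR share of the mitotic windows was 27.59% against 15.99% of all windows and 10.33% of those of the tested genes, since the other matches reach or lie within the 50 bases after the start. The intervals treat the windows as independent, and a match of letters is a description and not a bound site.

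The cultures held several cell types, and their markers moved between arrays. The sums given here cover every listed marker with a probe-set, also those too dim to be tested. The summed signal of 10 granule cell precursor markers was 9347 (untreated) and 8771 (T3) on the 6 h arrays, and 4170 and 4364 on those of 48 h. Over the same arrays that of 7 fibroblast and mural markers went from 1819 and 1135 to 12773 and 12601. The 8 granule neuron markers were Neurod1, Rbfox3, Cbln1, Gabra6, Grin2c, Snap25, Syt1 and Tubb3, not all of which mark granule neurons alone. Their sum, which checks the labelled cell type, went from 6968 and 6822 to 638.1 and 1005 on the same arrays. This was not a steady fall. The granule neuron sums at 16 and 24 h were 1983 and 7706 untreated, and 2348 and 4429 with T3. The untreated 24 h array stood apart. Its 8 astrocyte and Bergmann glia markers summed to 8613 against 2757 to 4749 on the other arrays. Among them was Aqp4, the astrocyte water channel, with a signal of 1054 there and 16.8 to 76.8 elsewhere. The granule neuron sum was highest on the same array. In such bulk samples, fewer cells of a type and less RNA per cell cannot be told apart.

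Over the hours of treatment, the mitotic genes as a group were highest at 6 h and lower on every later array, and the S phase genes differed less between arrays. These hours count from the start of treatment, after 48 h of plating, for T3 and untreated cultures alike. None of the 47 members passed the test at an adjusted p of 0.05. The test was a limma fit of the slope of log2 signal per doubling of the hours, adjusted for treatment, in which the arrays of one time point share a random effect, and it called 0.422% of all probe-sets falling and 1.75% rising. At an unadjusted p under 0.05 there were 28 of the 47, against 24.2% of all probe-sets, and the lowest adjusted p was 0.0523, for Cenpe. The slope estimate was below 0 for 45 of the 47 members, against 55.6% of all probe-sets, with Ccne1 and Ccne2 as the exceptions. When all 8 arrays were treated as independent, 22 members fell and 1, Ccne1, rose, against 8.56% and 10.6% of all probe-sets. The arrays of a time point share a cell batch and are not independent, so these counts overstate the evidence. With the arrays of each time point averaged, no member and no probe-set passed.

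The S phase genes had a median slope of -0.22 (15 genes, from -0.54 to 0.37) and the mitotic genes one of -0.53 (31 genes, from -0.83 to -0.27), while the median over all probe-sets was -0.03. All 31 mitotic slopes were below the S phase median. Of the 15 S phase slopes, 11 were above every mitotic slope, and the other 4 were those of Mcm3, Mcm5, Mcm7 and Chek1. At an unadjusted p under 0.05 there were 24 of 31 mitotic genes and 4 of 15 S phase genes, namely Chek1, Mcm5, Mcm7 and, with a positive slope, Ccne1. The S phase share is near the 24.2% of all probe-sets. These medians rest on the 6 h arrays: without them the S phase median was 0.02 and the mitotic median -0.29, and no member passed. Without the 24 h arrays, 29 members fell (25 mitotic genes and Mcm3, Mcm5, Mcm7 and Chek1) and Ccne1 rose, against 14.2% and 13.4% of all probe-sets, and without the 48 h arrays the mitotic median was -0.81 with no member called.

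**Figure D1:**
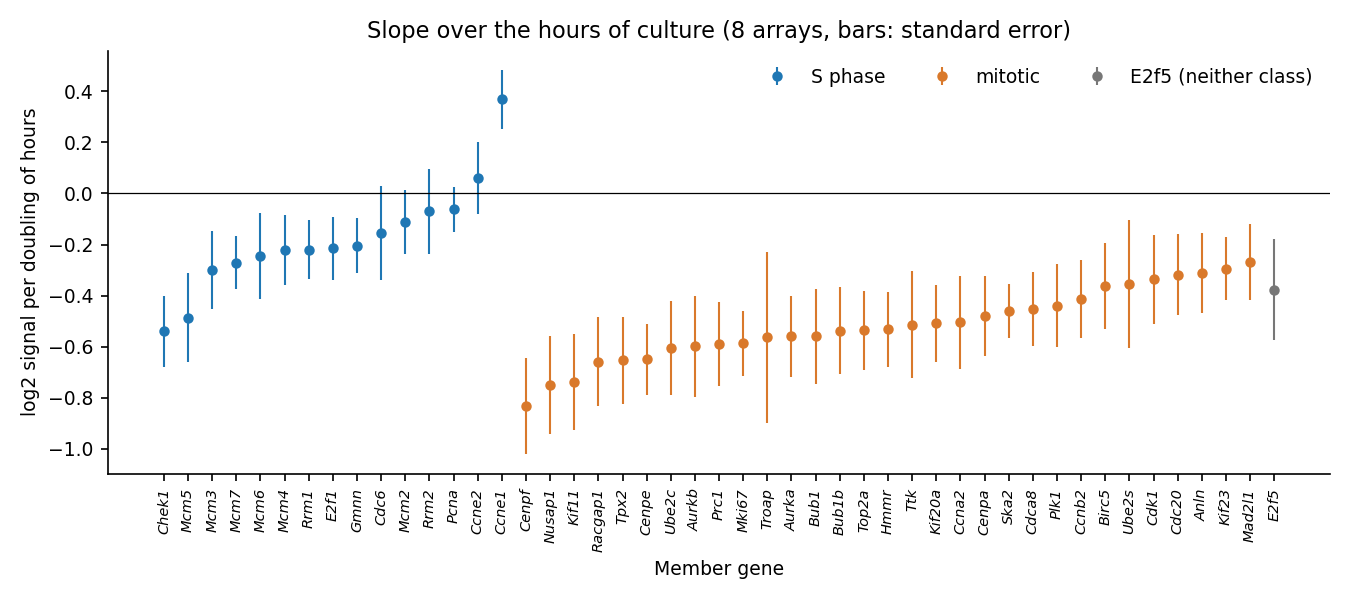
Slope of log2 signal per doubling of the hours of treatment (vertical axis) for the 47 tested members, ordered within the S phase, mitotic and E2f5 groups, each point being the estimate over 8 arrays and each bar its standard error. The mitotic slopes run from -0.83 for Cenpf to -0.27 for Mad2l1, and the S phase slopes from -0.54 for Chek1 to 0.37 for Ccne1.

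From 6 to 16 h without T3, all 31 mitotic genes were lower, by a median of -0.96 on the log2 scale (0.513 of the 6 h signal), and 13 of 15 S phase genes were lower, by a median of -0.62. Of all probe-sets, 51.6% were lower in that step. From 16 to 24 h, 22 of 31 mitotic genes were lower (median -0.28) and 10 of 15 S phase genes higher (median 0.19), while 54.2% of all probe-sets were lower. This step rests on the untreated 24 h array, which stood apart in its cell type markers. With T3 both classes were lower in the same step (medians -0.98 for mitotic and -0.44 for S phase genes). From 24 to 48 h, 18 mitotic and 13 S phase genes were lower, against 48.1% of all probe-sets. Over the whole span, all 31 mitotic genes and 14 of 15 S phase genes were lower at 48 h than at 6 h, against 53.7%, and the median mitotic signal at 48 h was 0.338 of that at 6 h.

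The T3 cultures took another course after 16 h. From 6 to 16 h, 30 mitotic and 14 S phase genes were lower, against 53% of all probe-sets. From 16 to 24 h, 30 of 31 mitotic genes (median -0.98) and 11 of 15 S phase genes (median -0.44) were lower, against 52.7%. From 24 to 48 h, 29 mitotic genes (median 0.65) and 14 S phase genes (median 0.40) were higher, where 52% of all probe-sets were lower. At 48 h all 31 mitotic and 13 S phase genes were still lower than at 6 h, against 55.9%. The T3 array at 24 h was the lowest of the 8 for 23 of 31 mitotic and 10 of 15 S phase genes, and a 6 h array was the highest for 30 mitotic genes.

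**Figure D2:**
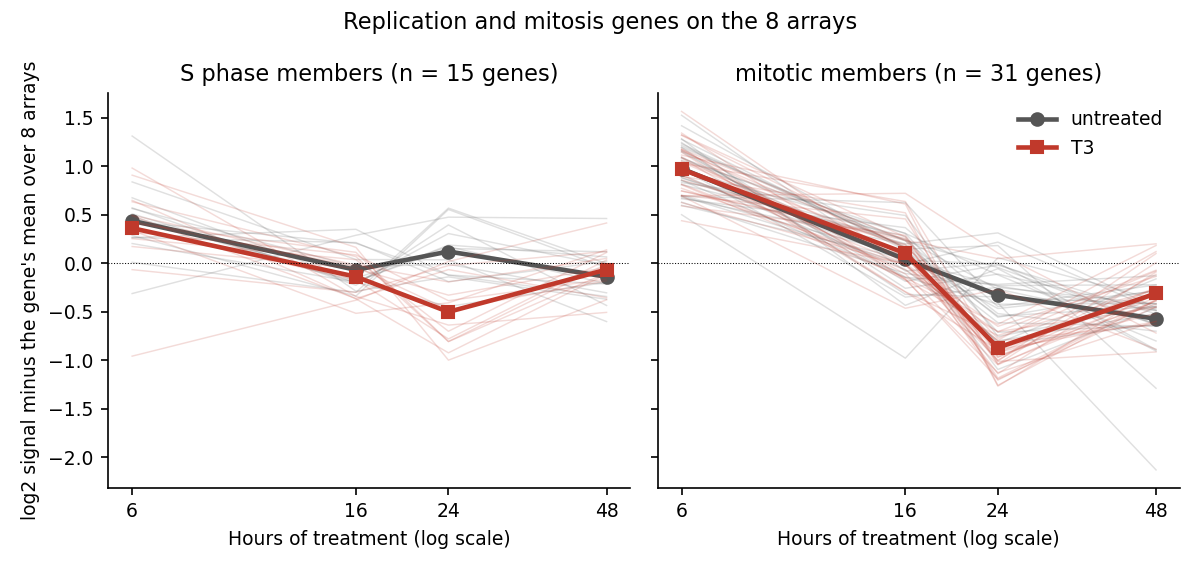
Log2 signal of each member minus its own mean over the 8 arrays (vertical axis) by hours of treatment on a log axis, for S phase (left) and mitotic genes (right), with thin lines for genes and thick lines with symbols for the class mean on each array. The untreated mitotic mean goes from 0.98 at 6 h to -0.57 at 48 h, and at 24 h the untreated S phase mean is 0.12 where that of the T3 array is -0.50.

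Among the genes of chromosome structure, Mki67 encodes the Ki-67 protein that coats mitotic chromosomes. Its signal was 2115, 1254, 932.6 and 581.1 on the untreated arrays at 6, 16, 24 and 48 h. With T3 it was 1837, 1158, 546.1 and 667.4. Both arrays of a time point were below both 6 h arrays from 16 h on, and the slope was -0.59 ± 0.13 (SE, adjusted p = 0.0526). Top2a, the topoisomerase that untangles sister chromatids, had signals of 1364, 654.7, 636.5 and 412.7 untreated and 1197, 637.5, 331.0 and 477.8 with T3. Its slope was -0.54 ± 0.15 (adjusted p = 0.0885), with no overlap between the 6 h arrays and the later ones.

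Of the 8 kinetochore and checkpoint genes, Cenpf, which encodes a large protein of the outer kinetochore, had the steepest slope of all members. Its signal was 1012, 419.0, 429.6 and 154.9 untreated at 6, 16, 24 and 48 h. With T3 it was 945.3, 421.9, 187.7 and 200.8. The untreated signal at 6 h was thus 6.53 times that at 48 h, and the slope was -0.83 ± 0.19 (adjusted p = 0.0569). A second, dimmer Cenpf probe-set had a slope of -0.17. The other slopes of this group ran to -0.27 for Mad2l1, whose product keeps the checkpoint on, and included those of Bub1, Bub1b, Ttk, Cenpa, Cenpe and Ska2.

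The spindle genes had a median slope of -0.65 over 5 genes, the lowest of the 10 roles with S phase or mitotic members. Nusap1, a spindle microtubule protein, had signals of 885.6, 290.8, 308.7 and 165.7 untreated and 779.8, 273.8, 140.6 and 203.2 with T3. Its slope was -0.75 ± 0.19 (adjusted p = 0.0723), and no later array exceeded 308.7. Kif11, the motor that pushes spindle poles apart, had signals of 198.3, 60.3, 78.4 and 43.5 untreated and 241.2, 80.6, 46.7 and 52.7 with T3. Tpx2, Hmmr and Troap had slopes from -0.65 to -0.53.

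Among the mitotic kinases and the passenger complex, the slopes of Aurka, Aurkb, Plk1, Birc5 and Cdca8 ran from -0.60 to -0.36. Aurkb, the kinase of that complex, had signals of 287.2, 158.9, 131.3 and 87.0 untreated and 306.1, 121.0, 59.1 and 99.3 with T3, with a slope of -0.60 ± 0.20 (adjusted p = 0.116). In central spindle and cytokinesis, Racgap1, which helps place the cleavage furrow, had signals of 353.8, 168.6, 70.5 and 109.6 untreated and 376.9, 181.8, 73.3 and 115.1 with T3. The values of this brightest probe-set were nearly equal between treatments at every time point, but its second probe-set differed by -1.31 at 24 h. The slopes of Kif20a, Kif23, Prc1 and Anln were between -0.59 and -0.29.

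Of the mitotic cyclins and Cdk1, cyclin A2 (Ccna2) had signals of 970.1, 766.7, 322.9 and 401.3 untreated and 1015, 781.6, 226.4 and 451.9 with T3, with a slope of -0.50 ± 0.18 (adjusted p = 0.141). Its lowest values were those of 24 h in both treatments. Cdk1, the kinase that starts mitosis, had signals of 818.2, 557.1, 391.2 and 442.6 untreated and 878.5, 742.3, 262.9 and 543.0 with T3. Ccnb2 had a slope of -0.41. In the anaphase-promoting complex group, Ube2c, the ubiquitin-conjugating enzyme that works with the complex, had signals of 996.5, 632.9, 312.0 and 327.8 untreated and 1108, 780.3, 213.6 and 393.0 with T3, and a slope of -0.61 ± 0.18 (adjusted p = 0.101), while Cdc20 and Ube2s had slopes of -0.32 and -0.35.

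The S phase genes were more varied. Chek1, the checkpoint kinase of stalled forks, had signals of 329.5, 108.7, 120.4 and 102.6 untreated and 262.1, 104.7, 85.3 and 93.4 with T3, the steepest slope of the class (-0.54 ± 0.14, adjusted p = 0.0728). Among the licensing and helicase genes, Mcm5, a helicase subunit, had signals of 1097, 630.1, 628.8 and 404.3 untreated and 1152, 687.3, 306.9 and 472.5 with T3. Its slope was -0.49 ± 0.17 (adjusted p = 0.136), and both 6 h arrays lay above all others. Mcm2 had signals of 373.8, 360.9, 272.9 and 315.4 untreated and 371.1, 319.3, 191.4 and 336.2 with T3, with the 24 h pair lowest and a slope of -0.11. The other 6 genes of this role (Cdc6, Gmnn, Mcm3, Mcm4, Mcm6 and Mcm7) had slopes from -0.30 to -0.16.

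The 3 flattest members were Pcna, Ccne2 and Rrm2. Pcna, the sliding clamp of the replication fork, had signals of 2002, 1518, 1980 and 1819 untreated and 1959, 1675, 1384 and 1687 with T3. Its slope was -0.06 ± 0.09 (adjusted p = 0.693), and the untreated 24 h signal nearly matched that of 6 h. Rrm2, the regulated subunit of ribonucleotide reductase, had signals of 696.4, 451.7, 838.7 and 553.4 untreated and 721.7, 399.3, 430.4 and 628.6 with T3. Cyclin E2 (Ccne2) had signals of 68.3, 55.1, 100.6 and 67.7 untreated and 64.8, 55.1, 66.7 and 73.8 with T3. For Rrm2 and Ccne2 the untreated 24 h array was the highest of the 8. On that array the astrocyte and Bergmann glia, oligodendrocyte and granule neuron marker sums were also the highest, whereas the microglia sum was low (119.4). Its precursor markers summed to 7511, against 6031 on the untreated 16 h array. The part of any of these cells in the values was not tested.

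**Figure D3:**
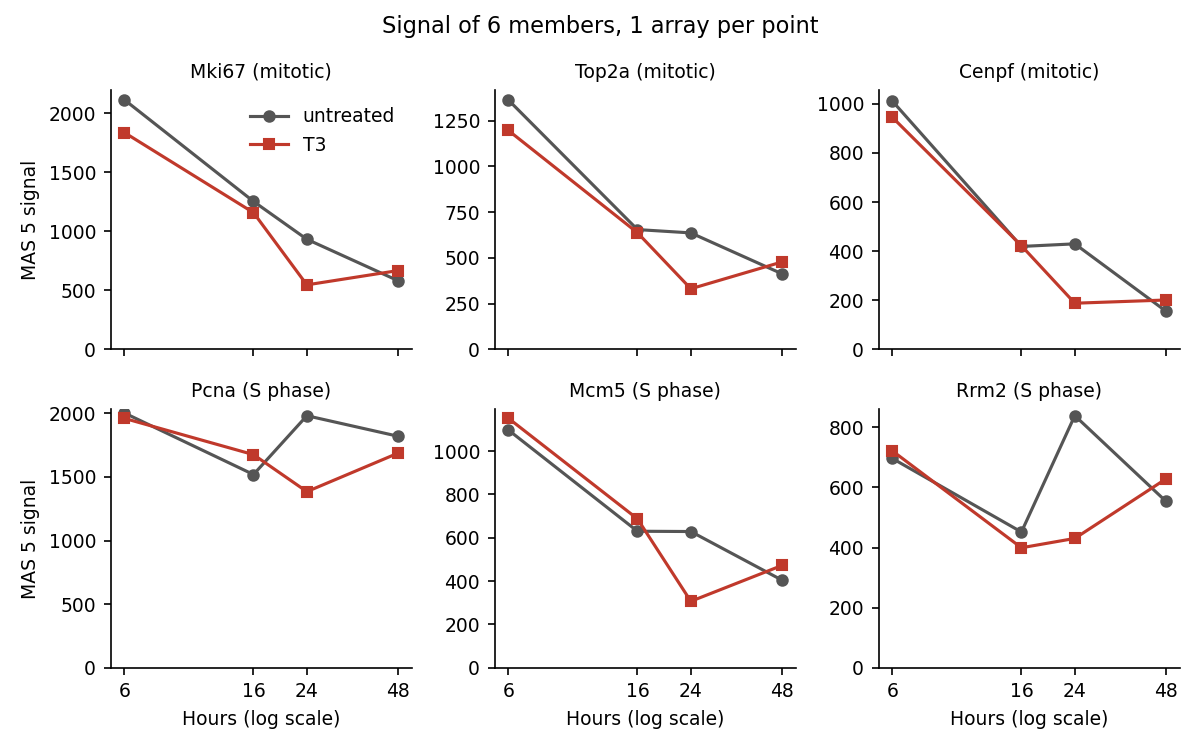
MAS 5.0 signal (vertical axis, from 0) of 3 mitotic genes (top) and 3 S phase genes (bottom) by hours of treatment on a log axis, 1 array per point, with untreated cultures as circles and T3 cultures as squares. Mki67, Top2a and Cenpf are highest at 6 h, whereas Rrm2 is highest on the untreated 24 h array (838.7).

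Cyclin E1 (Ccne1), a driver of S phase entry, went the other way. Its signal was 114.5, 173.7, 197.7 and 195.8 untreated and 73.2, 109.2, 144.0 and 189.6 with T3. Both 6 h arrays were lower than the later array of the same treatment in each case, and the slope was 0.37 ± 0.12 (adjusted p = 0.106). Its second probe-set also had a positive slope, 0.19. E2f1, the activator of S phase genes, had signals of 79.9, 49, 41.2 and 49 untreated and 79.1, 55.4, 49.1 and 58.1 with T3, and a slope of -0.22 ± 0.12 (adjusted p = 0.314). E2f5, a repressor E2F, had a slope of -0.38 ± 0.20 (adjusted p = 0.277) for its brightest probe-set and slopes of 0.25 and 0.20 for its other probe-sets.

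The T3 difference was small at 6 and 16 h, negative at 24 h and of the other sign for most members at 48 h. Over the 4 pairs, no member differed between T3 and untreated cultures at an adjusted p of 0.05 in the limma fit with the time point as a block, and 0% of all probe-sets did. This fit looks for a difference shared by the time points, so a difference at 1 time point alone counts as spread. Of the 47 members, 3 had an unadjusted p under 0.05 (Ccne1, Ska2 and E2f5, all lower with T3), against 5.47% of all probe-sets, and the lowest adjusted p was 0.815. The mean difference was below 0 for 36 of 47 members, against 46.8% of all probe-sets, with a median of -0.13. The 24 h pair set this direction, since without it the median was 0.03 and 31 of 47 were above 0. In a further limma fit of the T3 difference against the log2 of the hours, no member passed (0 of 47 also at an unadjusted p under 0.05), but neither did any probe-set (0% called and 1.72% at an unadjusted p under 0.05).

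At 6 h, 29 of 47 members were lower with T3, against 48.9% of all probe-sets, with a median of -0.03. No member passed 2-fold there in either direction, against 0.527% of probe-sets higher and 0.328% lower. At 16 h, 22 were lower (background 50.1%) and the median was 0.01, with Ube2s over 2-fold higher and E2f5 over 2-fold lower (background 0.433% and 0.305%). At 24 h, 41 of 47 were lower with T3, against 45.7% of all probe-sets, with a median of -0.58 (0.668 of the untreated signal). Of these, 6 were lower by more than 2-fold, 12.8% of the members against 5.16% of all probe-sets, and none was that much higher (background 3.67%). At 48 h only 7 of 47 were lower, against 50.4%, with a median of 0.19, and Troap alone passed 2-fold, higher with T3 (background 0.833% higher and 0.344% lower).

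The S phase and mitotic classes had nearly the same T3 difference at 24 h. The median was -0.59 for S phase genes, with 14 of 15 lower, and -0.57 for mitotic genes, with 26 of 31 lower. At 48 h the medians were 0.09 for S phase genes, 11 of 15 being higher, and 0.23 for mitotic genes, 29 of 31 being higher. Scaling each array to its median moved every difference by -0.15 at 48 h and -0.09 at 6 h. The S phase median at 48 h was then -0.06 with 6 of 15 higher and the mitotic median 0.08 with 23 of 31 higher, whereas the values at 24 h did not move. With 1 array on each side these differences had no test.

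**Figure D4:**
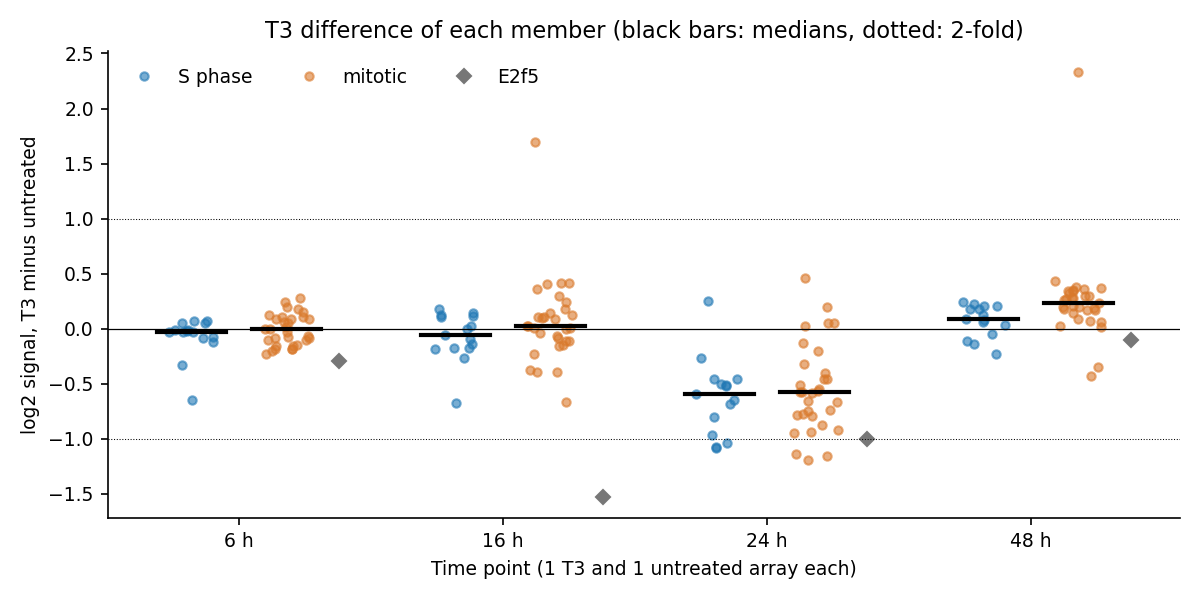
Log2 T3 minus untreated signal (vertical axis) of each tested member at the 4 time points, with 1 array of each treatment per time point, S phase genes and mitotic genes as separate columns, E2f5 as a diamond, black bars for class medians and dotted lines for 2-fold. The class medians lie at -0.59 and -0.57 in the 24 h columns, where those of 48 h lie at 0.09 and 0.23.

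The 6 genes lower by more than 2-fold at 24 h were 3 mitotic and 3 S phase genes. Cenpf had 429.6 untreated and 187.7 with T3 (log2 difference -1.19), Aurkb 131.3 and 59.1 (-1.15) and Nusap1 308.7 and 140.6 (-1.13). Among the S phase genes, Cdc6, which loads the helicase, had 65.0 and 30.6 (-1.09), Mcm6 475.6 and 225.6 (-1.08) and Mcm5 628.8 and 306.9 (-1.03). E2f5 was just inside the limit (211.0 and 105.7). With 32 added to each signal, which damps dim genes, Cenpf alone passed 2-fold, 1 of 47 members and no larger a share than the 2.89% of all probe-sets. At 1.6-fold there were 19 members, against 10.6% of all probe-sets. At 48 h none of the 6 was more than 2-fold apart, and their differences ran from -0.23 for Mcm6 to 0.37 for Cenpf.

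The members that were higher with T3 at 24 h were E2f1, Troap, Kif20a, Anln, Racgap1 and Ube2s, and Kif20a, Anln and Racgap1 are 3 of the 5 cytokinesis genes. The median difference of the cytokinesis genes at 24 h was 0.03, whereas the medians of the other S phase and mitotic roles lay between -0.86 for chromosome structure and -0.45 for the anaphase-promoting complex. Second probe-sets did not bear out each of these, since E2f1 had 0.25 for its brightest and -1 for its other probe-set, and Racgap1 0.06 and -1.31. Cdc20, the activator of the anaphase-promoting complex, had -0.45 for its brightest probe-set and 0.03 and 0.17 for the others. Over all 84 tested probe-sets of the members, 70 had lower T3 signals at 24 h, 16 had them at 48 h, and 78 had a slope over the hours below 0. For 2 members, Cenpa and E2f5, the slopes of their probe-sets had both signs.

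The largest single differences were those of Ube2s, E2f5 and Troap, which were already among the largest in earlier results of these data. Ube2s, which extends ubiquitin chains for the anaphase-promoting complex, had 70.2 untreated and 228.1 with T3 at 16 h, and at the other time points the pair differed by less than 1.6-fold. E2f5 had 438.8 untreated and 152.6 with T3 at 16 h, but its other probe-sets differed by -0.00 and -0.03. Troap, a spindle protein, had 8.7 untreated and 43.8 with T3 at 48 h, and with 32 added the log2 difference was 0.90. Each is a difference between 1 array and another.

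The brightest probe-set was lower with T3 at all 4 time points for 5 of 47 members (Ccne1, Mcm6, Chek1, Ska2 and E2f5), against 6.82% of all probe-sets, and higher at all 4 for Kif20a and Racgap1, against 8.25%. Ccne1 differed by -0.65, -0.67, -0.46 and -0.05 at 6, 16, 24 and 48 h (adjusted p = 0.815), but its second probe-set was lower at 24 h alone (-0.97). Ska2, a kinetochore subunit, differed by -0.19, -0.67, -0.58 and -0.43 (adjusted p = 0.815), and its second probe-set by 0.07, -0.09, -0.54 and 0.34. Of the members with more than 1 tested probe-set among these, Mcm6 had both probe-sets lower at every time point, with differences of -0.03, -0.18, -1.08 and -0.23 for the brightest. The name of the brightest Ccne1 probe-set, like those of Mcm4, Mcm5, Rrm2, Aurkb and Cdc20, marks probes that can also match other transcripts. Kif20a, a kinesin of the cleavage furrow, differed by 0.24, 0.24, 0.03 and 0.44.

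Markers of several cell types differed within the 24 h pair beside these genes. The granule cell precursor markers were lower with T3 for 9 of 9 genes and summed to 7511 untreated and 5634 with T3, while the fibroblast and mural markers were lower for 0 of 7 and summed to 5827 and 8704. Atoh1, the factor that defines the precursors, had 270.1 untreated and 32.8 with T3. Astrocyte and Bergmann glia markers were lower for 5 of 7 (8613 and 4666), oligodendrocyte markers for 2 of 4 (1848 and 738.1), granule neuron markers for 6 of 7 (7706 and 4429), and microglia markers for 2 of 4, low in both (119.4 and 103.9). At 48 h the precursor markers were lower with T3 for 3 of 9 and summed to 4170 and 4364. In that pair the granule neuron markers were lower for 2 of 7 (median 0.67, sums 638.1 and 1005) and the microglia markers for 0 of 4 (median 0.49, sums 937 and 1229). Their part in the differences of the members was not tested.

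Other genes of the same pathways were read from lists chosen by role. Of all probe-sets, 55.6% had a slope below 0 and 0.422% were called falling. Of 60 tested other mitosis genes, all 60 had a slope below 0, with a median of -0.44, and 2 passed the test over the hours. They were Nek2, a centrosome kinase, with 946.4 untreated at 6 h and 123.4 at 48 h (slope -0.93 ± 0.15, adjusted p = 0.0440), and Kif18b, a kinesin, with 215.9 and 50.4 (slope -0.75 ± 0.15, adjusted p = 0.0474). Kifc1 had a slope of -0.80 (adjusted p = 0.0521). The calls of Nek2 and Kif18b lie close to the threshold and depend on the fit. No probe-set of the 18015 was called with the arrays of each time point averaged. The same held with no variance trend, and without the 6 h or the 48 h arrays. Of 44 other replication genes, 43 had a slope below 0 and none passed, with a median of -0.23 and the steepest slopes for Dbf4 (-0.58), Timeless (-0.52) and Mcm10 (-0.49). Of 13 cell cycle transcription factors, 12 had a slope below 0 and none passed, the steepest being E2f8 (-0.82), Lin9 (-0.59) and Tfdp2 (-0.49).

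At 24 h, 52 of 60 other mitosis genes were lower with T3 (median -0.66), as were 34 of 44 other replication genes (median -0.61) and 9 of 13 transcription factors (median -0.33). The share of all probe-sets was 45.7%. At 48 h, 13 of 60 mitosis genes (median 0.29), 21 of 44 replication genes (median 0.02) and 7 of 13 transcription factors (median -0.07) were lower. The share of all probe-sets was 50.4%, and those of the replication genes and transcription factors were near it. None of the genes in the 3 lists passed the test of the T3 effect over the 4 pairs, and 0% of all probe-sets did.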

How the data were processed

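Cultures of cerebellar cells were measured on 8 arrays, 1 per condition. The deposited values are linear signal intensity values that the authors computed with GCOS and MAS 5.0 and scaled to a trimmed mean of 100 on each array. This global scaling sets the zero of every difference, and low intensity values are noisy. Signals under 1 were set to 1 and log2 was taken. Of 45037 probe-sets, the 18015 with a mean log2 signal at or above the 60th percentile (signal 31) were tested with limma 3.58.1 in R 4.3.3 (eBayes with a variance trend, Benjamini-Hochberg adjustment over the 18015, threshold 0.05). The T3 effect was fitted with the time point as a fixed block, since both cultures of a time point came from 1 cell batch. The slope over log2 hours was fitted with a random effect of time point (duplicateCorrelation, correlation 0.569), and the change of the T3 effect on the 4 differences. The fits were run on simulated data with the same noise for every probe-set, which checks that they return a set change. It does not show how they hold under the noise of these arrays. Genes were named by the platform table (34945 probe-sets with 1 symbol, 932 with several, 9160 with none). The precision is limited by the number of arrays. The p-values of the T3 fit set the mean T3 difference against its variation between the 4 time points. Those of the slope set it against the spread of the arrays around the fitted line, given the correlation within a time point. In both fits eBayes drew the spread toward that of other probe-sets. No condition had a replicate culture, and either spread may be partly technical.

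The members, gene lists and tests were chosen with earlier results of these data known. Named with values are members that passed a test, Mki67, Top2a, Pcna, Mcm2, Cdk1 and E2f1, the member with the largest slope in each role, members beyond 2-fold with T3, and the 3 flattest members. Up to 3 of the steepest genes are named for each other list of cell cycle genes. Of the cell type markers, only Aqp4 and Atoh1 are named with values. The study's methods give P1 to P4 for the pups where the labels give P4 to P7. Alternatives covered the scaling, the offset, the filter, the variance trend, the probe-set of a gene, the block and leaving out each time point.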

Additional observations from a re-analysis of the deposited data

Results flagged for a closer look

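The T3 difference of the members changed sign between 24 and 48 h. The median log2 difference of the S phase genes was -0.593 at 24 h and 0.0921 at 48 h, and that of the mitotic genes was -0.57 at 24 h and 0.23 at 48 h. Each time point has 1 array of each treatment, so the difference between the time points was not tested. The sign change of the S phase genes was absent when each array was scaled to its median (-0.06 at 48 h).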

How the results depend on the processing

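Of 354 values recomputed under the alternatives, 323 kept their direction and their side of the threshold or moved by less than their spread. The count of members with a falling slope was 0 and became 22 when all 8 arrays were treated as independent, 2 with the 75th percentile filter (0.879% of all probe-sets) and 3 with the mean of all probe-sets of a gene (1.03% of all genes). It stayed 0 with the arrays of each time point averaged, where no probe-set was called. It ran from 0 to 29 when a time point was left out, being 5 without 16 h (0.833% of all probe-sets) and 29 without 24 h. The count of rising members was 0 and became 1 with independent arrays, and ran from 0 to 1 when a time point was left out. The S phase median slope ran from -0.32 to 0.02 when a time point was left out, changing sign to 0.021 without the 6 h arrays, the mitotic median slope from -0.81 to -0.29, and their difference from -0.49 to -0.30. On the untreated arrays alone, an alternative chosen after seeing the data, the medians were -0.20 and -0.54. Members more than 2-fold lower with T3 at 24 h numbered 6, against 1 with 32 added (2.89% of all probe-sets), 19 at 1.6-fold (10.6%) and 0 at 3-fold (1.57%). The 1 lower at 16 h became 0 at 3-fold (0.0222% of all probe-sets), and the 1 higher at 48 h became 0 with 32 added (0.0666%). The S phase median T3 difference at 24 h was -0.51 with 32 added. The CHR share of the mitotic promoters was 27.59% in the 250 bases before the start alone. With no replicate block, 0 members passed the test of the T3 effect, as in every other alternative of that test. The causes of these changes were not tested. Dim genes such as Troap, Cdc6 and Ccne2 lie near the filter, and their signals limit what can be read from them.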
